A study of Mus musculus with 1 sample.

Results

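Peritubular myoid (PTM) cells were taken from the control single-cell library of fetal mouse testis as the barcodes that carried smooth muscle transcripts and few transcripts of other testicular cell types. The members were selected on measured values. A barcode needed at least 1000 detected genes, and the UMIs of *Acta2*, *Tagln* and *Myh11* had to make up at least 0.1% of its UMIs. It was left out if it held a UMI of more than 2 of 5 coelomic epithelium markers, more than 2 of 6 perivascular markers or more than 3 of 6 Sertoli cell markers, or if 4 steroidogenic genes reached 0.2% of its UMIs. Of the 5421 barcodes in the matrix, 577 met this rule, which was 10.6% (exact binomial 95% interval 9.83 to 11.5).

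The study asked what the loss of the nuclear receptor NR5A1 from Sertoli cells does to the fetal testis, and the control library shows the cells of the testis with *Nr5a1* in place. Its label gives the genotype as WT and the stage as embryonic day 14.5 (E14.5), while the methods give E13.5 and E14.5, with no day on a cell, and describe the controls as *Nr5a1* L2/L2 fetuses, in which the gene is flanked by loxP sites and no Cre transgene is present, on a mixed C57BL/6 and 129/SvPass background. The methods give 12 control testes as the source of the cells, which were read as 1 library with no label of testis on a cell, so cells were not replicates and nothing was tested. The mutant library, which also carries the AMH-cre transgene and a YFP reporter, was not analysed here.

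PTM cells are flat, contractile cells that wrap the seminiferous cords. They share a basement membrane with the Sertoli cells on the other side, and in the adult their contractions help to move sperm along the tubule. In the fetal testis they arise from mesenchymal precursors, and Desert hedgehog from Sertoli cells is known to be needed for their differentiation. Smooth muscle α-actin (*Acta2*) is their classical marker, although vascular smooth muscle cells and pericytes carry it too.

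The members held 7385544 unique molecular identifiers (UMIs), each of which stands for 1 captured transcript. The shallowest had 1973 UMIs, the median member 10854 and the deepest 65559, with a median of 3325 genes and of 6.35% mitochondrial UMIs. For comparison, the other barcodes of at least 1000 genes were sorted by fixed markers into classes, of which the interstitial-like class was the largest. It had 1487 cells with a median of 9570 UMIs, and required at least 3 of 6 mesenchymal markers, among them *Pdgfra*, *Nr2f2*, *Tcf21*, *Wnt5a* and *Nr2f1*, and a contractile share under 0.1%. The 111 perivascular-like cells had a median of 11325 UMIs, the 140 coelomic epithelium-like cells 18100, the 1068 Sertoli-like cells 13836, the 280 Leydig-like cells 18680 and the 301 germ-like cells 37384. A further 138 barcodes met more than 1 class rule and 84 met none. Levels are UMIs summed over a class per 1000000 UMIs of that class (CPM), ratios between classes have 1 CPM added to both levels, and the exact 95% intervals of levels (Poisson) and shares (binomial) cover counting error only. Because the rule and the classes were set on the expression of these same cells, every contrast between them is a description.

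The genes of the rule were unequal in the members. *Acta2* (chromosome 19, 34241090 to 34255590 on GRCm38) made up 75.3% of the contractile UMIs, *Tagln* (chromosome 9, 45929619 to 45936058), which encodes the actin-binding protein transgelin, 22.3%, and *Myh11* (chromosome 16, 14194535 to 14291372), the smooth muscle myosin heavy chain, 2.42%. *Acta2* was detected in 576 members, *Tagln* in 475 and *Myh11* in 227. All 3 genes were detected together in 199 members, and *Acta2* alone in 74. On *Acta2* alone, 504 members would have reached the minimum.

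The contractile share had no gap at the minimum. The median member had 0.246%, the 10th percentile was 0.117%, the 90th 0.648% and the highest member 1.93%. The lowest member stood at 0.1003% and the highest barcode that met every other limit but not the minimum at 0.09993%. Between 0.1% and 0.12% there were 70 members, and between 0.08% and 0.1% there were 109 barcodes outside. On this measure the members are therefore the upper range of a continuous distribution, with no visible boundary at the minimum. The measure rests on few UMIs, with a minimum of 2 and a median of 29 in members, so counting error could hide a gap. Whether other genes give the members a boundary was not tested. Of 679 barcodes over the contractile minimum, 102 were left out by the other limits, 48 of them on the perivascular, 37 on the coelomic, 21 on the Sertoli and 4 on the steroidogenic limit, with some on more than 1.

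**Figure D1:**
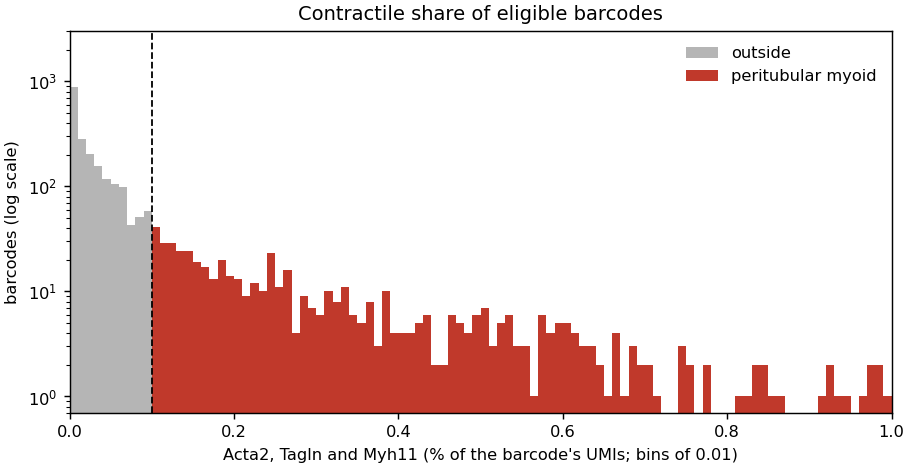
Contractile share (UMIs of Acta2, Tagln and Myh11 as a percentage of all UMIs, bins of 0.01) of barcodes that met every other limit of the rule, with the number of barcodes on a log axis; shares over 1% are not drawn. Grey bars are barcodes outside, red bars are members, and counts fall across the dashed minimum at 0.1% without a trough.

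The members carried the mesenchymal markers used to sort interstitial-like cells, which were not particular to the interstitium. Against coelomic epithelium-like cells the 6 markers had a median ratio of 1.11, so they do not tell the members from that class. Against perivascular-like cells the median ratio was 1.5. Of the 577 members, 571 had a UMI of at least 3 of the 6 interstitial markers, which the rule did not use, and the summed level of these markers was 2452 CPM against 2247 CPM in interstitial-like cells. *Tcf21*, a mesenchymal transcription factor, stood at 838 CPM in members and 629 CPM in interstitial-like cells. *Nr2f2*, the nuclear receptor COUP-TFII, was level at 614 and 609 CPM, and *Pdgfra*, a receptor for platelet-derived growth factors (PDGF), was at 212 and 277 CPM.

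Markers of other cell types were low in the members. The perivascular markers summed to 50.2 CPM, with *Notch3* at 29.1 CPM as the most abundant, against 1206 CPM in perivascular-like cells and 70.7 CPM in interstitial-like cells. The coelomic markers summed to 5.55 CPM (most abundant *Upk3b*) against 1052 CPM in their own class, the Sertoli markers to 53.7 CPM (*Aard*) against 7394 CPM, and the steroidogenic markers to 28.4 CPM (*Cyp17a1*) against 27800 CPM. The rule itself limits these lists, so their low level is no finding. Among lists it did not limit, the endothelial markers summed to 38 CPM (*Egfl7*) against 4348 CPM in endothelial-like cells. The immune markers reached 1.49 CPM (*Fcer1g*) against 10880 CPM, with *C1qa* and *Ctss* at 0. The germ cell markers summed to 37.6 CPM against 4699 CPM in germ-like cells. Here 1 member of 58121 UMIs held 68.7% of the germ UMIs of all members, and without it the level was 11.9 CPM, below the 17.2 CPM of interstitial-like cells. The germ cell gene *Dppa3* was the 1 germ marker that reached 10 CPM, at 13.9 CPM in members and 4.07 CPM in interstitial-like cells.

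Hemoglobin UMIs were found in 85.3% of members, with a median of 2 UMIs, but most of them lay in a few cells. The 7 hemoglobin genes summed to 2841 CPM in members and 197 CPM in interstitial-like cells. A group of 5 members with between 12% and 39.2% hemoglobin UMIs held 93.8% of these UMIs. Without them the level was 179 CPM. The 4 genes *Hbb-bs*, *Hba-a1*, *Hba-a2* and *Hbb-bt*, whose near-identical copies share reads, took the first 4 places by ratio to interstitial-like cells among genes of at least 50 CPM in members outside the rule. They are included in the counts over all genes that follow.

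Against interstitial-like cells, 8628 genes reached 10 CPM in either class, and the median ratio over them was 0.991. In all, 119 genes (1.38%) were at least 2-fold higher in members and 123 (1.43%) at least 2-fold lower. Of 35 measured genes in 3 lists of contractile genes outside the rule, 13 were at least 2-fold higher and 1 was lower, with a median ratio of 1.79. Contractile genes vary together with the genes that chose the cells, so this count describes the selection and supports nothing beyond it.

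Of 11 measured thin filament genes, 5 were at least 2-fold higher and none lower. *Actg2*, the enteric smooth muscle actin (chromosome 6, 83512905 to 83536265), was at 28.7 CPM (25 to 32.8) in members and 0.452 CPM (0.182 to 0.931) in interstitial-like cells. *Cnn1*, calponin 1, which restrains actomyosin (chromosome 9, 22099216 to 22109630), was at 21.7 CPM (18.4 to 25.3) against 0.323 CPM (0.105 to 0.753). *Lmod1*, the actin nucleator leiomodin 1, was at 12.7 CPM against 0.581 CPM. These 3 transcripts were scarce in absolute terms and nearly missing from interstitial-like cells. The more abundant genes had smaller ratios, with the calponin *Cnn2* at 384 and 120.2 CPM, the tropomyosin *Tpm2* at 453 and 168 CPM, and *Tpm1* at 1520 and 769 CPM, a ratio of 1.98 just under the threshold. *Cald1*, caldesmon, was high in both classes at 1224 and 1086 CPM.

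Motor and regulatory light chain genes followed. Of 10 measured, 4 were at least 2-fold higher and 1 lower. *Myl9*, the smooth muscle regulatory light chain, was at 602 CPM (585 to 620.2) against 169.5 CPM (163 to 176). The essential light chain *Myl6* was at 1607 and 729.8 CPM and the light chain kinase *Mylk* at 228 and 95.7 CPM. *Ppp1r12b*, a targeting subunit of myosin phosphatase, stood at 37.2 and 11.7 CPM. The exception was *Ppp1r14a*, an inhibitor of myosin phosphatase, which was lower in members at 95.2 CPM (88.3 to 103) than in interstitial-like cells at 229.5 CPM (222 to 237). Perivascular-like cells had 257 CPM of *Ppp1r14a* and Leydig-like cells 354 CPM. The non-muscle myosins *Myh10* and *Myh9* had ratios of 1.88 each.

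Of 14 measured Z-body, linker and intermediate filament genes, 4 were at least 2-fold higher and none lower. The LIM protein gene *Csrp1* was at 243 and 79.6 CPM, filamin A (*Flna*) at 333 and 165 CPM and vinculin (*Vcl*), which anchors actin to adhesions, at 68.2 and 33 CPM. *Pdlim5* was low in both, at 12.7 and 4.32 CPM. Desmin (*Des*), the muscle intermediate filament, was at 41 CPM in members and 25.3 CPM in interstitial-like cells, and vimentin (*Vim*) at 1389 and 1586 CPM.

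Serum response factor (SRF) drives many smooth muscle genes together with its coactivator myocardin. *Myocd*, which encodes myocardin (chromosome 11, 65176561 to 65269989), was at 35.6 CPM (31.4 to 40.2) in members and 2.78 CPM (2.01 to 3.74) in interstitial-like cells. It was also 7.04 CPM in perivascular-like and 19.8 CPM in coelomic epithelium-like cells. *Srf* itself was at 14.8 and 8.97 CPM, and the related coactivators *Mrtfa* and *Mrtfb* had ratios of 1.33 and 1.13. The matricellular targets *Ccn1* and *Ccn2* were at 38.3 and 26.4 CPM against 10.7 and 10.9 CPM. With *Myocd* these made 3 of 11 measured genes of the SRF list at least 2-fold higher, and none was lower.

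**Figure D2:**
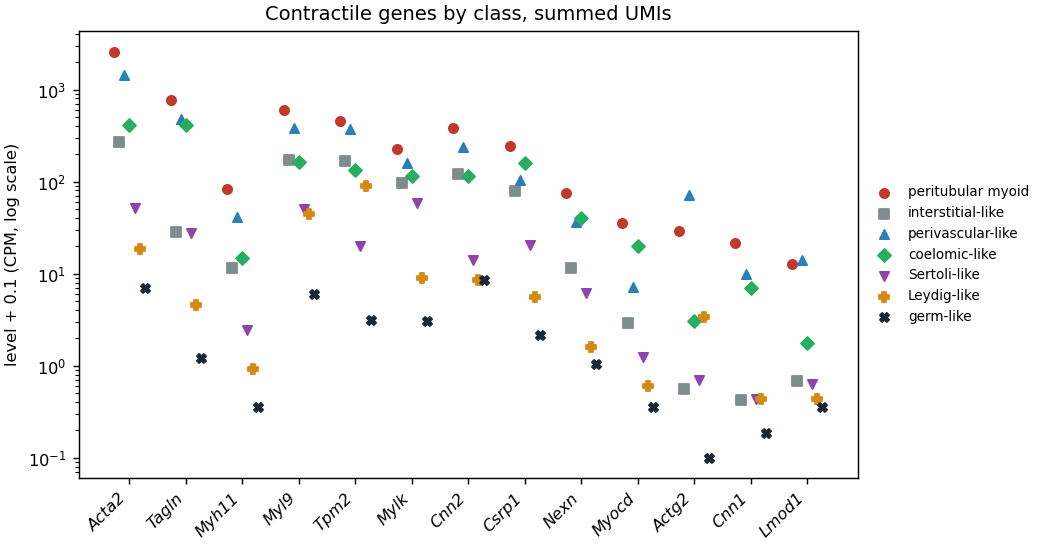
Level of 13 contractile genes in CPM (0.1 added, log axis) in 7 classes of the control library, each point being the summed UMIs of 1 class. Members are highest for all genes shown except Actg2 (28.7 CPM against 71.1 CPM in perivascular-like cells, where it was detected in a similar share of cells) and Lmod1 (12.7 against 14.1 CPM); the 13 genes were picked after their values were seen.

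SRF binds the CArG box, so the promoters of the contractile genes were searched for it. Of the 41 genes of the rule and the 3 contractile lists, 36 had a promoter in the RefSeq windows (GRCm38.p6), and the search covered the 250 bases before the transcription start. The exact CArG consensus, which reads the same on both strands and was the single motif searched, occurred in 4 of the 13 genes with a window that were at least 2-fold higher in members (30.8%), in 2 of the 23 others (8.7%), and in 439 of all 27025 genes with a window (1.62%). A match is a description of the letters, and a window without one says nothing of SRF. The 4 windows are shown 5′ to 3′ on the strand of the gene because they join the genes named above to a sequence, with the CArG box in capitals. *Myl9* lies at chr2:156775214-156775463 on the plus strand, *Cnn2* at chr10:79988350-79988599 on the plus strand, *Myl6* at chr10:128493010-128493259 on the minus strand and *Vcl* at chr14:20929148-20929397 on the plus strand.
Myl9: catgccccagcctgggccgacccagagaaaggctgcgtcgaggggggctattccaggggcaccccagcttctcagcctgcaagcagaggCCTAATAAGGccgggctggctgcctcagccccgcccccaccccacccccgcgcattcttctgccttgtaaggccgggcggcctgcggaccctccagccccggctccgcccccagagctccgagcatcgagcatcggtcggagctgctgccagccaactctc
Cnn2: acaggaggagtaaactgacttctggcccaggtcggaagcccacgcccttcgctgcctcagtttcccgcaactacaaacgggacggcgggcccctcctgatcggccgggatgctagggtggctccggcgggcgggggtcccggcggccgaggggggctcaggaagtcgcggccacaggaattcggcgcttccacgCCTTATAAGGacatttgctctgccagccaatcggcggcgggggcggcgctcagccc
Myl6: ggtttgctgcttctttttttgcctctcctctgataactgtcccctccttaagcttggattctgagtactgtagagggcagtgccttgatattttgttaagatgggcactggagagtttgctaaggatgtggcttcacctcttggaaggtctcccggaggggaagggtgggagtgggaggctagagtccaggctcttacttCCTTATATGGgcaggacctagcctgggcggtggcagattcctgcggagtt
Vcl: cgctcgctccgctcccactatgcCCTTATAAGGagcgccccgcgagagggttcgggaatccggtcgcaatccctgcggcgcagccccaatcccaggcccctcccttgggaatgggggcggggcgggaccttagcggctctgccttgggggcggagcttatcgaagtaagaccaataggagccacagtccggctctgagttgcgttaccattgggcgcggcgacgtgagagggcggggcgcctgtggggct
The box began 161 bases before the start in *Myl9*, 56 in *Cnn2*, 50 in *Myl6* and 227 in *Vcl*.

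Most members did not show the scarcer muscle transcripts at all. When each cell was thinned to 5000 UMIs, which left out 21 shallower members and kept 556, a member had between 0 and 75 *Acta2* UMIs, with a median of 10, and an interstitial-like cell between 0 and 11, with a median of 1. The contractile minimum sets this difference in *Acta2*, because members lie over it and interstitial-like cells under it, so it is no finding. *Myl9* was detected in 85.3% of members and 46.4% of interstitial-like cells, and *Tpm2* in 78.2% and 53.6%. *Myh11* was detected in 26.8% of members (23.2 to 30.7). *Myocd* was detected in 13.49% (10.8 to 16.6), *Actg2* in 8.99% (6.75 to 11.7), *Cnn1* in 5.58% (3.82 to 7.82) and *Lmod1* in 4.32% (2.79 to 6.35). In interstitial-like cells these last 4 genes were found in 1.48%, 0.282%, 0.141% and 0.352% of cells, and in thinned germ-like cells, which should lack them, in 0%. A missing UMI at this depth does not show that a cell lacks the transcript. Before thinning, *Actg2* was seen in 16.3% of members.

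Perivascular-like cells were not selected on contractile genes, and their median contractile share was 0.0631% with a 95th percentile of 0.826%. Of 8796 genes measured, 271 (3.08%) were at least 2-fold higher in members and 351 (3.99%) lower. Among the 35 contractile genes outside the rule, 5 were higher and 5 lower, with a median ratio of 0.988 for the summed levels. *Acta2* was at 2586 CPM in members and 1455 CPM in perivascular-like cells, and *Tagln* at 764 and 474 CPM. Counted per cell at 5000 UMIs, the median was 10 *Acta2* UMIs in members and 3 in perivascular-like cells. The rule chose the members on *Acta2* and *Tagln*, so their higher levels of these genes are no finding. *Myl9* was detected in 85.3% of members and 55% of perivascular-like cells, *Cnn2* in 76.1% and 57.8% and *Csrp1* in 62.1% and 29.4%. Other genes were closer, with *Tpm2* in 78.2% and 69.7% (60.2 to 78.2) and *Lmod1* in 4.32% and 4.59%. The genes with lower summed levels in members included *Csrp2*, at 104 against 243 CPM, and *Pdlim5*, at 12.7 against 39.4 CPM. *Actg2* had a lower summed level in members, at 28.7 and 71.1 CPM, but was detected in similar shares, 8.99% of members and 9.17% (4.49 to 16.2) of perivascular-like cells, 1 of which held 15 UMIs. Of 8 measured Notch pathway genes, 5 were at least 2-fold lower in members, with *Notch3* at 29.1 against 144 CPM, *Heyl*, a Notch target, at 39.5 against 229 CPM and *Jag1*, a Notch ligand, at 13.7 against 85.2 CPM. *Notch3* is a marker the rule limits. *Itga1*, the collagen-binding integrin α1, was at 17.3 CPM against 247 CPM, and *Pdgfrb*, the PDGF receptor of mural cells, at 75.8 against 344 CPM. *Tcf21*, *Wnt5a* and *Sfrp1* were higher in members, the last a secreted Wnt antagonist at 316 against 102 CPM.

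Some genes that set the members apart from interstitial-like cells were also abundant in the coelomic epithelium. Against coelomic epithelium-like cells, 364 of 8869 genes (4.1%) were at least 2-fold higher in members and 451 (5.09%) lower, and of the 35 contractile genes outside the rule 11 were higher and none lower. Over all 8869 genes the median ratio of members to coelomic epithelium-like cells was 0.999, so a higher level in that class was common by itself. The 25 genes with the highest ratio of members to interstitial-like cells, among genes of at least 50 CPM in members outside the rule, held 21 other than hemoglobin. Of these 21 genes, 6 were higher still in coelomic epithelium-like cells, which is no excess. These were *Cdh3* (54.3 CPM in members, 155 in coelomic epithelium-like and 11.4 in interstitial-like cells), *Alcam* (402, 652 and 137 CPM), *S100a6* (168, 707 and 60 CPM), *Gas1* (305, 548 and 126 CPM), *Cavin3* and *Cdc42ep3*. *Cdh3* encodes P-cadherin and *Alcam* a cell adhesion molecule of the immunoglobulin family. The coelomic epithelium markers themselves were close to 0 in members, as given above.

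Among genes of at least 50 CPM in members outside the rule, 10 were named for the highest ratio to whichever other class had most of them. The leading gene was *C1qtnf3*, a secreted C1q and TNF-related protein, at 61.6 CPM in members and 16.7 CPM in interstitial-like cells. *Col4a4*, a minor collagen IV chain, was at 75.3 and 21.4 CPM, and *Igfbp3*, a carrier of insulin-like growth factors, at 446 and 149 CPM, with endothelial-like cells as its next highest class. The others were *Ogn*, *Col1a1*, *Abracl*, *Etl4*, *Nexn*, *Lpar1* and *Pdlim3*. By the same ratio the rule gene *Myh11* (2.01) would have stood among these 10. The rule gene *Acta2* (1.78) would have followed *Lpar1* (1.8) and fallen just outside them. *Nexn*, which encodes the actin-binding protein nexilin, was at 74.5 CPM against 39.9 CPM in coelomic epithelium-like and 11.4 CPM in interstitial-like cells. The most abundant transcripts other than ribosomal protein and mitochondrial genes were *Tpt1* (9598 CPM), *Eef1a1* (8552 CPM) and cytoplasmic actin *Actb* (4159 CPM against 2627 CPM in interstitial-like cells).

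Of 27 measured fibrillar and interstitial matrix genes, 5 were at least 2-fold higher in members than in interstitial-like cells and none lower, with a median ratio of 1.18. *Col1a1*, the α1 chain of collagen I, was at 1663 CPM (1634 to 1693) against 764 CPM (750.4 to 778), whereas its partner chain *Col1a2* was at 1323 and 1166 CPM and *Col3a1* at 1553 and 1320 CPM. *Fbln5*, fibulin 5, which organises elastic fibres, was at 116 and 24.8 CPM, and *Lox*, the enzyme that cross-links collagen and elastin, at 48.7 and 12.1 CPM. *Mgp*, matrix Gla protein, was at 427 and 184 CPM, with 884 CPM in perivascular-like cells, and *Tnc*, tenascin C, was at 16 and 5.74 CPM. The elastin gene *Eln* itself was close between the classes at 94.2 and 82.2 CPM.

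Of 15 measured basement membrane genes, none was at least 2-fold higher and 2 were lower, with a median ratio of 0.869. The main collagen IV chains *Col4a1* and *Col4a2* were at 402 CPM (388 to 417) and 198 CPM (188 to 208) in members against 870 and 401 CPM in interstitial-like and 1849 and 796 CPM in perivascular-like cells. In thinned cells *Col4a1* had a median of 1 UMI in members, 4 in interstitial-like and 8 in perivascular-like cells. The laminin gene *Lama2* was at 27.9 and 47.6 CPM, *Lamb1* at 148 and 188 CPM, and nidogen 1 (*Nid1*) at 115 and 123 CPM. *Col4a5* and *Col4a6* had ratios of 0.759 and 0.745, and *Col4a4*, which was not in this list, had a ratio of 3.4.

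Hedgehog and PDGF ligands of Sertoli cells signal to the cells around the cords. *Dhh*, the hedgehog ligand of the testis, was at 291 CPM in Sertoli-like cells and 0.948 CPM in members. *Pdgfa* was at 400.5 and 47.5 CPM. Of 11 measured hedgehog genes, 1 was at least 2-fold higher in members than in interstitial-like cells and 3 were lower. Signal-receiving genes were close, with the transducer *Smo* at 101 and 106 CPM and *Gli2*, *Boc* and *Cdon* at ratios of 1.08, 1.16 and 0.908. The co-receptor gene *Gas1* was higher, at 305 and 126 CPM. The genes that were lower included targets and feedback inhibitors of the pathway, among them the receptor *Ptch1* (102 CPM, 95.1 to 110, against 213 CPM) and the ligand trap *Hhip* (19.4 against 76 CPM). *Gli1*, the target most used as a readout, was at 30.9 and 44.3 CPM, a ratio of 0.704.

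In the PDGF list 1 of 5 measured genes was higher, the ligand *Pdgfc* (18.4 against 7.16 CPM), and it was most abundant in coelomic epithelium-like cells at 121 CPM. Of 18 genes of the TGF-β, BMP and activin list none was higher and 3 were lower. Among them *Inhba*, which encodes the βA subunit of activin A, was at 93.8 CPM (87 to 101) against 244 CPM, while *Bmp5* and *Bmp7* were under 14 CPM in both classes. *Tgfb2* was at 131 and 103 CPM, and the receptors *Tgfbr1* and *Tgfbr2* had ratios of 0.91 and 0.954. In the WNT list, 1 of 14 genes was higher and 2 were lower. The receptor *Fzd1* was at 43.6 and 19.2 CPM, the ligand *Wnt6* at 16.5 and 62.9 CPM, with 1038 CPM in Sertoli-like cells, and the transcription factor *Lef1* at 4.74 and 17.5 CPM. *Wnt5a*, a ligand of the testis mesenchyme, was at 441 and 325 CPM.

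Hormone and retinoid genes were mostly at or below the interstitial level. Of 6 measured steroid and orphan nuclear receptors none was higher and 1 was lower. The estrogen receptor *Esr1* was at 3.52 and 11.2 CPM, and *Nr5a1*, the gene removed from Sertoli cells in the mutants of the study, at 16.4 and 25.5 CPM, against 72.1 CPM in Sertoli-like and 245 CPM in Leydig-like cells. Of 8 retinoic acid genes 1 was higher, the binding protein gene *Crabp1* (11.5 against 4.78 CPM), and 2 were lower. *Aldh1a1*, which makes retinoic acid, had the lowest ratio of all genes over 50 CPM in interstitial-like cells, at 13.8 against 103 CPM, and *Cyp26b1*, which degrades it, was at 1.63 and 11.5 CPM. Both were most abundant in Leydig-like cells, *Aldh1a1* at 1747 CPM and *Cyp26b1* at 232 CPM. The prolactin receptor *Prlr* and *Cpa1*, *Akr1cl*, *Nts* and *Wfdc1*, 5 more of the 10 genes with the lowest ratios, were also highest in Leydig-like cells among the 7 classes drawn in the plot of contractile genes.

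Among 16 measured gonadal transcription factors, *Meis2* was higher (285 against 133 CPM) and *Osr2*, a mesenchymal zinc finger factor, lower (32.2 against 113 CPM). *Wt1* was at 94 and 56.8 CPM and *Gata6* at 76.4 and 41.6 CPM, both with their highest of these levels in coelomic epithelium-like cells at 356 and 244 CPM. Of 11 niche and growth factor genes none passed 2-fold. *Cxcl12*, a chemokine that guides germ cells, was at 353 and 654 CPM, and *Gdnf*, made by adult PTM and Sertoli cells for spermatogonial stem cells, was at 2.84 CPM in members, 6.52 CPM in interstitial-like and 38.8 CPM in Sertoli-like cells. Of 10 integrins, *Itga1* was higher at 17.3 against 5.61 CPM. Of 7 Notch genes *Notch1* was lower at 9.21 against 20.5 CPM. Of 11 listed receptors of contractile agonists, the endothelin receptor *Ednra* alone reached 10 CPM, at 152 and 167 CPM. The second endothelin receptor *Ednrb* was at 7.45 CPM (5.61 to 9.69) in members and 1.03 CPM in interstitial-like cells, and the oxytocin receptor *Oxtr* at 0.271 CPM. Of 9 measured imprinted growth genes none passed 2-fold in either direction.

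**Figure D3:**
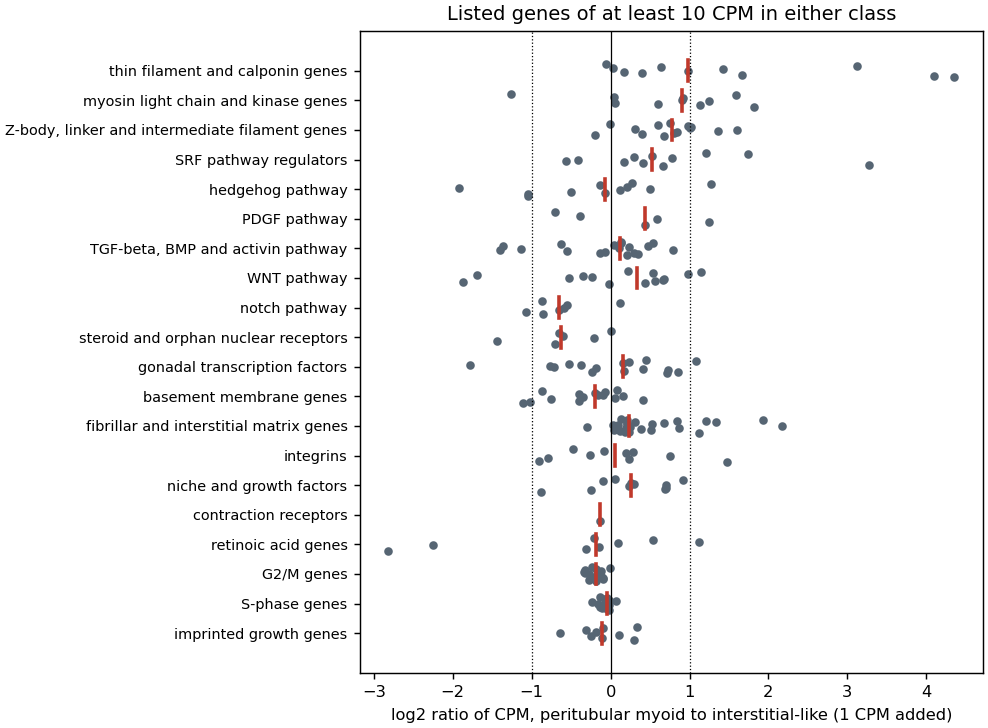
Log2 ratio of the level in members to that in interstitial-like cells (1 CPM added) for the listed genes of at least 10 CPM in either class; each point is a gene, red bars are list medians and dotted lines mark 2-fold. The 3 contractile lists lie mostly to the right of 0 and the G2/M, S-phase and imprinted lists close to 0; the median over all 8628 genes was -0.01 on this scale.

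The members differed among themselves along the same measure. They were ordered by contractile share into a lowest group of 193 cells (0.1003% to 0.177%) and a middle (0.178% to 0.348%) and a highest group (0.351% to 1.93%) of 192 cells each, with median depths of 10288, 10931 and 11389 UMIs. Of 8706 genes measured, 137 (1.57%) were at least 2-fold higher and 156 (1.79%) at least 2-fold lower in the highest than in the lowest group. Of the 35 contractile genes outside the rule, 12 were higher and 1 lower. Because the order uses the rule's own genes, these values show what changes along the contractile share and are given without a test.

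The scarce muscle transcripts were concentrated at the top of this order. *Cnn1* was at 0 CPM in the lowest group, with 0 UMIs in 2394376, which allows up to 1.54 CPM by the exact interval, at 12 CPM in the middle and at 52.1 CPM in the highest group. *Actg2* went from 5.85 to 11.6 and 67.8 CPM, *Lmod1* from 2.51 to 5.61 and 29.7 CPM, and *Nexn* from 20.1 to 51.6 and 149.6 CPM. *Myocd* was spread more evenly, at 16.3, 33.2 and 56.6 CPM, and in the interstitial-like cells just below the rule's minimum (0.05% to 0.1%) it stood at 4.69 CPM. *Acta2*, which sets the order, went from 1095 to 1978 and 4626 CPM.

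Of 28 measured fibrillar and interstitial matrix genes, 4 were at least 2-fold higher in the highest than in the lowest group (*Col12a1*, *Fbln5*, *Lox* and *Tnc*) and none lower, with a median ratio of 1.2. *Col1a1* was at 632, 781 and 881 CPM in interstitial-like cells under 0.01%, from 0.01% to 0.05% and from 0.05% to 0.1% contractile share, and at 1214, 1594 and 2165 CPM in the 3 groups of members. *Igfbp3* followed the same course from 119 to 148, 183, 244, 352 and 734 CPM. *Fbln5* reached 207 CPM in the highest group from 56 CPM in the lowest. *Mgp* was nearly level within the members, at 398, 433 and 449 CPM.

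Of 15 measured basement membrane genes none was at least 2-fold higher in the highest group and 3 were lower (*Col15a1*, *Col4a1* and *Col4a2*). *Col4a1* was level in the interstitial-like groups, at 859, 881 and 861 CPM, and then stood at 606, 389 and 221 CPM in the members, and *Col4a2* at 302, 184 and 112 CPM. *Inhba* went from 151 to 74.1 and 58.6 CPM and *Osr2* from 61.4 to 23.2 and 13.2 CPM within the members. Of 11 measured hedgehog genes none was higher and 3 were lower, among them *Hhip* at 37.6, 11.2 and 10 CPM and *Gli1* at 39.7, 34.8 and 18.5 CPM. *Ptch1* was at 144.5, 86.9 and 77 CPM, short of 2-fold. Of 7 measured Notch genes none was higher and 2 were lower, *Notch1* and *Heyl*, the latter at 66.8, 39.2 and 13.6 CPM. Of 5 measured PDGF genes the ligand gene *Pdgfd* was higher and *Pdgfrb* lower, the latter at 104, 79.7 and 44.9 CPM. *Ppp1r14a* continued its contrast with the other contractile genes at 145, 87.7 and 54.6 CPM. None of the 6 interstitial markers differed 2-fold between the highest and the lowest group, but they did not run alike. *Nr2f2* was at 633, 609 and 599 CPM and *Tcf21* at 765, 894 and 852 CPM. *Pdgfra* was lower toward the top, at 234, 217 and 184.5 CPM, and *Wnt5a* higher, at 363, 460.4 and 496 CPM. The spread of these levels between cells was not tested. Of the 5 germ cell markers over 10 CPM all were at least 2-fold lower in the highest group, and 4 hemoglobin genes likewise, and the barcodes with many germ and hemoglobin UMIs are described above.

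**Figure D4:**
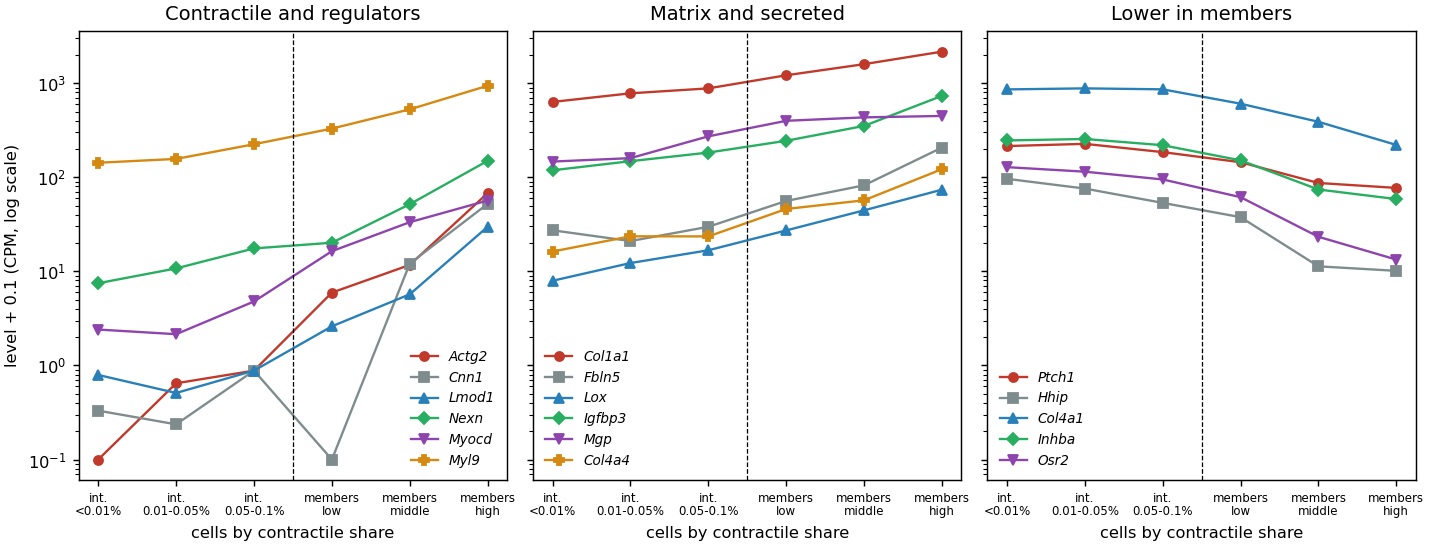
Level in CPM (0.1 added, log axis) of 17 genes in interstitial-like cells (int.) in 3 ranges of contractile share and in members of the low, middle and high groups, with the dashed line at the rule's minimum; the genes were picked after their values were seen. Actg2, Cnn1 and Lmod1 are far higher in the high group of members than in the low group, Col1a1 and Igfbp3 are higher in each group than in the one before, and Col4a1 is level up to the minimum and lower in the members, while Ptch1 and Inhba are already lower in the group just below the minimum.

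The evenness of genes among members was compared by the variance-to-mean ratio of UMIs at 5000 UMIs, over genes with a mean of at least 0.2 UMI and with hemoglobin, mitochondrial, ribosomal protein and rule genes left out. *Hbb-bs*, which was thus left out, had a ratio of 806 and *Acta2* one of 7.84. Among the genes compared *Ren1*, the renin gene, had the highest ratio, 18.4, although 4.5% of members (2.93 to 6.57) had any. In unthinned counts 9 members with at least 10 *Ren1* UMIs held 320 of the 394 *Ren1* UMIs of all members. These 9 had *Acta2* at 1438 CPM against 2603 CPM in the other members. *Ren1* is abundant in fetal Leydig cells, here at 3410 CPM in Leydig-like cells, and 19 interstitial-like cells also had 10 UMIs or more. After *Ren1* the 15 genes with the highest ratios in this comparison held 7 of the cell cycle or chromatin (*Ube2c*, *Hmgb2*, *H1f5*, *H2az1*, *Pclaf*, *Top2a* and *Cenpf*), the tubulin gene *Tubb4b*, the matrix genes *Mgp*, *Col1a1*, *Col4a1*, *Dcn* and *Col3a1*, and *Tmsb4x*.

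Many members carried transcripts of dividing cells. At 5000 UMIs, 194 of 556 members, or 34.9% (30.9 to 39), had at least 5 UMIs of 15 G2/M genes. The share was 34.7% (32.2 to 37.2) in interstitial-like cells, 51.4% (41.6 to 61.1) in perivascular-like, 30.4% (27.5 to 33.4) in Sertoli-like and 8.18% (5.2 to 12.1) in Leydig-like cells. Members and interstitial-like cells were thus indistinguishable within counting error, while the interval of Leydig-like cells lay below both. None of the 15 G2/M or 15 S-phase genes measured differed 2-fold between members and interstitial-like cells. Over all genes 1.38% were at least 2-fold higher and 1.43% lower in this contrast, so finding none is near that share. Across the contractile groups of members the share was 32.8% (26.1 to 40.1), 38% (31 to 45.3) and 33.9% (27.1 to 41.2), with overlapping intervals. The 194 members with G2/M transcripts had *Acta2* at 2628 CPM against 2551 CPM in the 362 others, and *Cnn1* at 30.6 against 14.9 CPM, and they were deeper before thinning, with a median of 14801 against 10260 UMIs. Without possible doublets the share of all members was 31.1%.

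**Figure D5:**
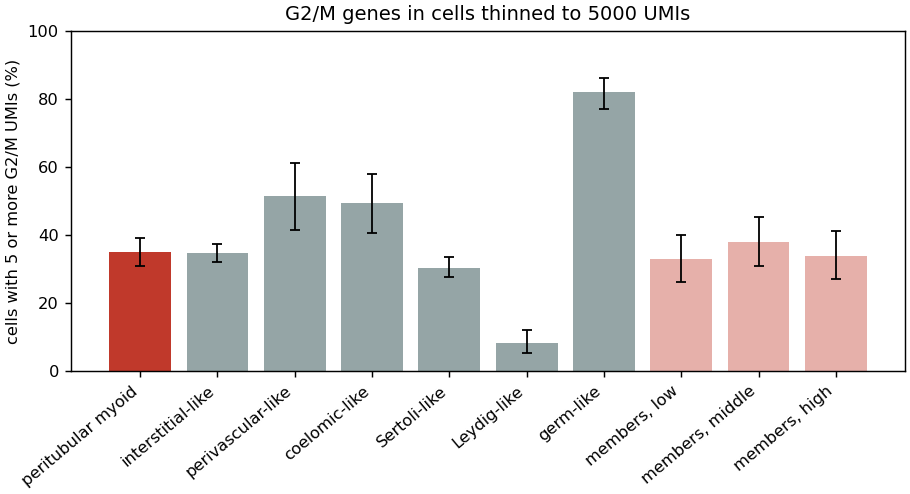
Percentage of cells with at least 5 UMIs of 15 G2/M genes after thinning to 5000 UMIs, for members (red), 6 other classes (grey) and the 3 contractile groups of members (pink), with exact 95% binomial intervals for counting error. Members (34.9%) and interstitial-like cells (34.7%) coincide, Leydig-like cells are lowest (8.18%) and germ-like cells highest (82%).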

How the data were processed

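The control library was prepared with a 10x Genomics 3′ kit. The authors deposited raw UMI counts, which they had obtained with Cell Ranger against mm10 supplemented with YFP. The submitters' processing notes name Cell Ranger 3.0.2 and 3.1.0, the header of the matrix names 3.1.0, and the methods give another version. All 5421 barcodes and 72595083 UMIs were read, and 0 columns were left unused. Barcodes were selected and sorted into classes by fixed markers, with no clustering, no normalization beyond CPM and no doublet caller.

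The members and the 30 gene lists were chosen with earlier results of these data known. Genes were named if they belonged to the rule or a list, had one of the 25 highest or 10 lowest ratios to interstitial-like cells or the 10 highest ratios to any other class (at least 50 CPM, rule genes left out of the highest ratios), one of the 15 highest variance-to-mean ratios at 5000 UMIs (mean of at least 0.2 UMI, with hemoglobin, mitochondrial, ribosomal protein and rule genes left out), or were among the 10 most abundant (mitochondrial and ribosomal protein genes left out). Genes were counted as higher or lower from 2-fold if they reached 10 CPM in either class. Positions came from GENCODE M21 and promoters from RefSeq (GRCm38.p6). Values were computed with scipy 1.17.1 and numpy 2.4.6, tables read with pandas 2.3.3 and plots drawn with matplotlib 3.10.9 under Python 3.11.15, and the ratios were tested on simulated data. Other minimums, filters and scalings were tried as alternatives. One left out possible doublets, which were members with 3 or more germ, endothelial or immune markers or with a UMI total over 3 median absolute deviations above the median on a log scale. Some listed genes are not reported here. No test was made, because 1 library has no replicates.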

Additional observations from a re-analysis of the deposited data

Results flagged for a closer look

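The YFP sequence was counted in the control library, although the methods give the reporter to the mutants and not to the controls. It had 159 UMIs in 150 barcodes, with at most 3 in one barcode, which was 2.19 CPM (1.86 to 2.56). In members it had 20 UMIs in 18 cells (2.71 CPM, 1.65 to 4.18), in interstitial-like cells 2.07 CPM (1.41 to 2.92) and in Leydig-like cells 4.96 CPM (3.35 to 7.08). The source of these reads was not tested.

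Among the 1120 barcodes with fewer than 1000 genes, which the rule leaves out, 19 reached the contractile minimum, and 7 of these had at least 3 contractile UMIs. They entered no comparison.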

How the results depend on the processing

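The number of members followed the contractile minimum, with 932 barcodes at 0.05% and 347 at 0.2%. It moved little (539 to 589) with 500 or 2000 genes per barcode or when possible doublets, barcodes over 10% mitochondrial UMIs or hemoglobin-rich members were left out. The rule's limits on markers of other cell types were not varied. The 119 genes higher than in interstitial-like cells became 179 without a minimum level, and the 123 lower genes became 238. The count of lower genes was 58 with a contractile minimum of 0.05% and 213 with 0.2%, as cells moved between the classes. The counts stayed within 1.5 times under 500 or 2000 genes per barcode, without possible doublets, without barcodes over 10% mitochondrial UMIs, with each cell's CPM averaged, with 5 CPM added (82 higher and 84 lower), with other limits for interstitial-like cells, and when scaled by the median ratio of genes. Of the 119 higher genes, 74 (62.2%) remained with a contractile minimum of 0.05%, 117 with 0.2%, 104 without possible doublets and 115 without the 5 members rich in hemoglobin, an alternative chosen after seeing the data. Of the 377 named or listed genes, the CPM in members moved beyond its counting interval for 155 with the contractile minimum at 0.05%, for 171 with 0.2%, for 44 without possible doublets and for 4 without the members rich in hemoglobin. With cells thinned to 3000 in place of 5000 UMIs, 256 of 339 gene values moved beyond their interval, all of them lower. The share of members with G2/M transcripts was 41.7% with at least 3 UMIs and 27% with at least 10, and 31.1% without possible doublets. No paired analysis was possible because there was 1 library. Depth limits the scarce contractile transcripts, since a cell of 5000 UMIs can lack a UMI of a gene that it expresses.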
